A study of Mus musculus with 6 samples.

Results

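The genes of MHC class I antigen presentation were examined in cultured cells from tumours of the mouse ovarian surface epithelium, the cell layer that covers the ovary. The set held 10 genes: the heavy chains H2-K1, H2-D1 and H2-T23, the light chain B2m, the peptide loading genes Tap1, Tap2 and Tapbp, and the immunoproteasome subunits Psmb8, Psmb9 and Psmb10. They were chosen by name, and each was read from the probe set with the highest mean log2 signal among those whose annotation names 1 gene only. By that rule 9 of the 10 genes were found among 18194 genes on the array, and all 9 passed the filter on dim genes. H2-T23 was not analysed here, because its probe sets in the annotation also name another gene.

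Gene expression was measured on 6 single-colour Affymetrix arrays, 2 in each of 3 groups that differ in p53, the tumour suppressor whose R172H change is a hotspot mutation. The first group was homozygous for R172H, with both arrays from mice aged 4 weeks. The second was heterozygous, carrying R172H beside wild-type p53, with arrays from mice aged 9 and 12 weeks. The third had wild-type p53, with both arrays from mice aged 9 weeks. Homozygosity and young age therefore cannot be told apart. All groups carry the prefix P/K in their sample titles, which the labels do not spell out. The titles were followed for the homozygous group, since another label field there names a related gene. Tumour cells were digested with trypsin, plated in serum-containing medium and collected before any passage. The strain background is given as mixed, and the MHC haplotype, in which heavy chain sequences differ between strains, is not stated. The labels do not say whether the 2 arrays of a group came from separate animals, so p-values measure only the spread between these samples, which may be technical.

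Class I molecules carry peptides from inside the cell to its surface, where cytotoxic T cells read them. Proteasomes cut proteins into peptides, the immunoproteasome subunits replacing their constitutive counterparts when interferon is present. The Tap1 and Tap2 transporter moves peptides into the endoplasmic reticulum, and tapasin, the product of Tapbp, holds the empty heavy chain and B2m beside it until a peptide is bound. Tumours are known to lose parts of this pathway.

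The promoters of H2-K1, H2-D1 and B2m are shown because they carry sequences through which class I genes are known to be induced together, and that of Tap1 for comparison. They are the 250 bases before the annotated start, from RefSeq on build GRCm38.p6, written 5′ to 3′ on the gene's strand. H2-K1 lies at chr17:34000334-34000583 on the minus strand, at 1 of its 2 annotated starts. H2-D1 lies at chr17:35262844-35263093, B2m at chr2:122147437-122147686 and Tap1 at chr17:34187306-34187555, all on the plus strand. Capitals in the first 3 mark the X2 box core TGACG, the Y box ATTGG, the interferon regulatory factor sequence AANNGAAA on either strand, and a kappa-B sequence. Capitals in Tap1 mark TGACG and CCAAT, the reverse complement of the Y box. CCAAT also occurs in H2-K1 and H2-D1, after the marked ATTGG, and is left in lower case there.
H2-K1: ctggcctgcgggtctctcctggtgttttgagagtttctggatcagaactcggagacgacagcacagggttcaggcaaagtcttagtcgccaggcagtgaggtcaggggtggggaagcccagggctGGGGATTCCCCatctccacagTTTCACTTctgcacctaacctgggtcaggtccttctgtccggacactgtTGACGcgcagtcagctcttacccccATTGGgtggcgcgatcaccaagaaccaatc
H2-D1: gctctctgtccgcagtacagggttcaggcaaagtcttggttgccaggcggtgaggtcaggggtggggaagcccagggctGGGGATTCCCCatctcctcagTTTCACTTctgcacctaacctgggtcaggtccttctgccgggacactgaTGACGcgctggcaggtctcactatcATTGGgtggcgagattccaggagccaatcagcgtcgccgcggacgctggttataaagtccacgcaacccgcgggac
B2m: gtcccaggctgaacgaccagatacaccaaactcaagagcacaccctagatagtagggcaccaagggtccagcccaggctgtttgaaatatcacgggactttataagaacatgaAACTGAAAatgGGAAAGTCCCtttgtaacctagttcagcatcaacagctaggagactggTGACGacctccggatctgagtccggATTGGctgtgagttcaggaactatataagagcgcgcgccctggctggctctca
Tap1: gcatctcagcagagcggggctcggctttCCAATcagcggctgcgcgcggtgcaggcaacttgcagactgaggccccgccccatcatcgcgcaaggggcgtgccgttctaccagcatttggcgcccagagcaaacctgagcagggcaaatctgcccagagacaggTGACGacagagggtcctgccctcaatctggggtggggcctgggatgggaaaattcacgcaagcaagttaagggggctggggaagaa
In H2-K1, H2-D1 and B2m the TGACG core stood 20 bases before ATTGG. That arrangement, searched on both strands, was found in 26 of 27025 promoters, or 0.0962%, and in 3 of the 9 promoters that the table holds for the 10 genes listed, H2-T23 included and Tap2 not. Tap1 had neither this arrangement nor an AANNGAAA or kappa-B match. The separate sequences were common: TGACG was in 19.8% of promoters, ATTGG in 37.5%, AANNGAAA in 23.9% and the kappa-B sequence in 4.46%. The gamma-activated sequence TTCNNNGAA, in 8.13% of promoters, was found in Psmb8 alone among those 9 promoters. Tap1 and Psmb9 are transcribed away from each other, and their 300-base windows share 275 bases. A match only describes letters in a window.

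The deposited values are linear intensities. Fold changes were fitted with limma on log2 intensities, with 1 probe set per gene and Benjamini-Hochberg adjustment over all 10916 genes tested. A gene was called at an adjusted p under 0.05, and errors beside log2 values are limma standard errors with n = 2 arrays a group. Signals under 24.5 were taken as background, that being the maximum over 18 readings of Trpn, a bacterial control. Median signals of the arrays lay between 41.1 and 60.6. Precision is set by how few arrays there are. Some arrays did not lie closest to their own group. Over the tested genes the SD of the log2 difference was 0.31 between the first heterozygous and the second wild-type array, below the 0.55 between the heterozygous arrays and the 0.60 between the wild-type arrays. The homozygous arrays differed from each other with an SD of 1.304. From the other 4 arrays the first differed with an SD of 1.63 to 1.80. The second differed from them with an SD of 1.07 to 1.21, and so lay nearer to them than to the first. In these bulk samples, fewer cells of a type and less RNA per cell cannot be told apart.

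The heavy chains present the peptide, and H2-K1 had the smallest standard error of the 9 genes. Its intensity was 1877 and 1941 in homozygous cells, 8651 and 8756 in heterozygous cells, and 5379 and 6856 in wild-type cells. No groups overlapped, and homozygous cells were lowest. H2-K1 fell in homozygous cells by 3.18-fold against wild-type (log2 fold change -1.67 ± 0.23, limma adjusted p = 0.0398). It also fell against heterozygous cells, by 4.56-fold (log2 fold change -2.19 ± 0.23, limma adjusted p = 0.0226). The call against wild-type was lost without any single heterozygous or wild-type array (adjusted p between 0.134 and 0.221), without both arrays that lay close together (-1.49, 0.440), and with median-centred arrays (0.0770), no filter (0.115), averaged probe sets (0.0588), array weights (0.0580) or only these groups fitted (0.136). The call against heterozygous cells was lost without any of those single arrays (adjusted p between 0.0831 and 0.232), without both close arrays (-2.20, 0.399), with no filter (0.0792) and with only these groups fitted (0.0845).

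H2-D1, the other classical heavy chain measured, had intensities of 1887 and 1165 in homozygous cells, 5361 and 4557 in heterozygous cells, and 2314 and 3908 in wild-type cells. The groups again did not overlap, but the homozygous and wild-type arrays came close. The log2 fold change of homozygous cells was -1.02 ± 0.38 against wild-type (limma adjusted p = 0.161) and -1.74 ± 0.38 against heterozygous cells (limma adjusted p = 0.0692), and neither was called.

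B2m, the invariant light chain, had intensities of 6461 and 8771 in homozygous cells, 14089 and 12228 in heterozygous cells, and 8756 and 11656 in wild-type cells. Homozygous and wild-type arrays overlapped narrowly, the higher homozygous array lying just above the lower wild-type array. The log2 fold change of homozygous cells was -0.42 ± 0.28 against wild-type (limma adjusted p = 0.362) and -0.80 ± 0.28 against heterozygous cells (limma adjusted p = 0.136).

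Of the peptide loading genes, only Tapbp was called in a comparison. Its intensity was 1610 and 2498 in homozygous cells, 5933 and 6616 in heterozygous cells, and 5735 and 5798 in wild-type cells. Homozygous cells were below both other groups on both arrays. Tapbp fell in homozygous cells by 3.12-fold against heterozygous cells (log2 fold change -1.64 ± 0.29, limma adjusted p = 0.0489). Against wild-type cells its log2 fold change was -1.52 ± 0.29, with a limma adjusted p of 0.0587 that missed the threshold. The call against heterozygous cells was lost without any array other than the second homozygous array, with adjusted p between 0.0518 and 0.314, and was 0.00674 without that array. It was also lost in most other settings, with adjusted p of 0.400 without both close arrays, and held with a filter raised to the 60th percentile (0.0342) or a floor at background (0.0379).

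The transporter genes were dimmer. Tap1 had intensities of 97.7 and 225 in homozygous cells, 441 and 480 in heterozygous cells, and 346 and 441 in wild-type cells. Tap2, its partner subunit, had 50.4 and 108 in homozygous cells, 271 and 321 in heterozygous cells, and 140 and 262 in wild-type cells. For both genes the homozygous arrays lay below every other array, and the second homozygous array was the higher of its pair. The log2 fold changes of homozygous against wild-type cells were -1.40 ± 0.44 for Tap1 and -1.38 ± 0.49 for Tap2, with limma adjusted p of 0.120 and 0.148. Against heterozygous cells they were -1.63 ± 0.44 and -2.00 ± 0.49, with limma adjusted p of 0.0874 and 0.0789.

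None of the immunoproteasome subunits was called, and Psmb10 had values unlike those of Psmb8 and Psmb9. Psmb8, which takes the place of Psmb5, had intensities of 35.5 and 108 in homozygous cells, 511 and 456 in heterozygous cells, and 137 and 488 in wild-type cells. Psmb9, which takes the place of Psmb6, had 41.5 and 106 in homozygous cells, 426 and 469 in heterozygous cells, and 237 and 415 in wild-type cells. Homozygous arrays were lowest for both, and the first wild-type array stood well below the second, close to the homozygous level for Psmb8. The log2 fold changes of homozygous against wild-type cells were -2.07 ± 0.78 for Psmb8 and -2.24 ± 0.53 for Psmb9, with limma adjusted p of 0.161 and 0.0785. Against heterozygous cells they were -2.97 ± 0.78 and -2.75 ± 0.53, with limma adjusted p of 0.0856 and 0.0571.

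Psmb10, which takes the place of Psmb7, had intensities of 903 and 1033 in homozygous cells, 1419 and 992 in heterozygous cells, and 833 and 1388 in wild-type cells. All 3 groups overlapped. Its log2 fold change of homozygous against wild-type cells was -0.15 ± 0.35, with a 95% interval of -1.04 to 0.73 (limma adjusted p = 0.793). The sign turned to 0.15 with each array centred on its median and to 0.21 without the second wild-type array.

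**Figure D1:**
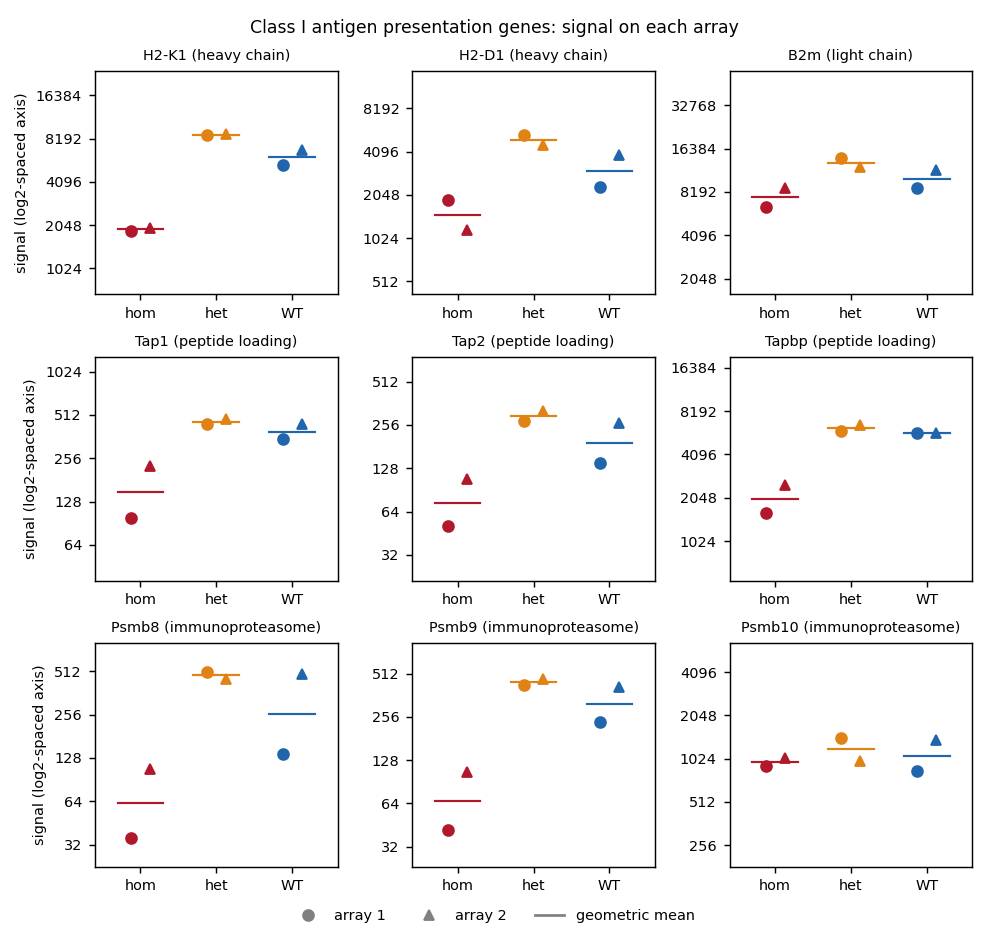
Intensity of each of the 9 genes on each array, on a log axis, with homozygous, heterozygous and wild-type arrays from left to right, points for single arrays and lines for geometric means. Homozygous arrays lie lowest for every gene except B2m and Psmb10, where they overlap another group.

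Counted together, 1 of the 9 genes fell in homozygous against wild-type cells, where 2.25% of all genes tested fell, and 0 of 9 rose, where 0.412% did. Both homozygous arrays lay below both wild-type arrays for 7 of 9 genes, against 33.8% of all genes. The log2 fold change was below 0 for 9 of 9, against 54.6%, and at -1 or less for 7 of 9, against 18.5%. At an unadjusted p under 0.05, 7 of 9 passed, against 28.9% of all genes tested. The median log2 fold change was -1.40 over the 9 genes and -0.09 over all genes tested. With arrays centred on their medians these values were -1.09 and 0.22, since centring shifts all genes alike. The members' median lay at -1.305 relative to that of all genes, and at -1.13 after quantile normalization.

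Against heterozygous cells, 2 of 9 genes fell in homozygous cells, where 3.22% of all genes tested fell, and 0 of 9 rose, where 0.87% did. The log2 fold change was below 0 for 9 of 9 genes, against 54.3%, and at -1 or less for 7 of 9, against 19% of all genes. At an unadjusted p under 0.05, 8 of 9 passed, against 30.6%. Both homozygous arrays lay below both heterozygous arrays for 8 of 9 genes, against 34.2%, with Psmb10 the exception. The median log2 fold change was -1.74 over the 9 genes and -0.08 over all genes. The homozygous arrays enter both comparisons, so the 2 counts are not independent.

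Heterozygous and wild-type cells were not separated by the test. In limma 0 of 9 genes were called, and 0% of all genes were called in either direction. At an unadjusted p under 0.05, 0 of the 9 genes and 71 of 10916, or 0.65%, passed. The fit shares its estimate of spread with the homozygous arrays, which differed with an SD of 1.304, against 0.55 and 0.60 within the other groups. Where the homozygous arrays differ on a gene, its standard error in this comparison is therefore larger, which makes a call less likely. The log2 fold change of heterozygous cells was above 0 for 9 of 9 genes, against 50.8% of all genes, with a median of 0.51 against 0.00. Both heterozygous arrays lay above both wild-type arrays for 7 of 9 genes, against 13.2% of all genes, the exceptions being Psmb8 and Psmb10. That median rested on the first wild-type array: without it the value was 0.11. The macrophage markers listed further on ran the same way, with 8 of 8 tested genes above 0 and a median of 0.92, and their part in the result was not tested. The order of group means was heterozygous, wild-type, homozygous for all 9 genes, and the share of all genes with this order was not computed. Heterozygous and wild-type levels were not told apart for any of them, and homozygous and wild-type levels were called different for H2-K1 alone. For Psmb10 the order of homozygous and wild-type cells turned with median-centred arrays.

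**Figure D2:**
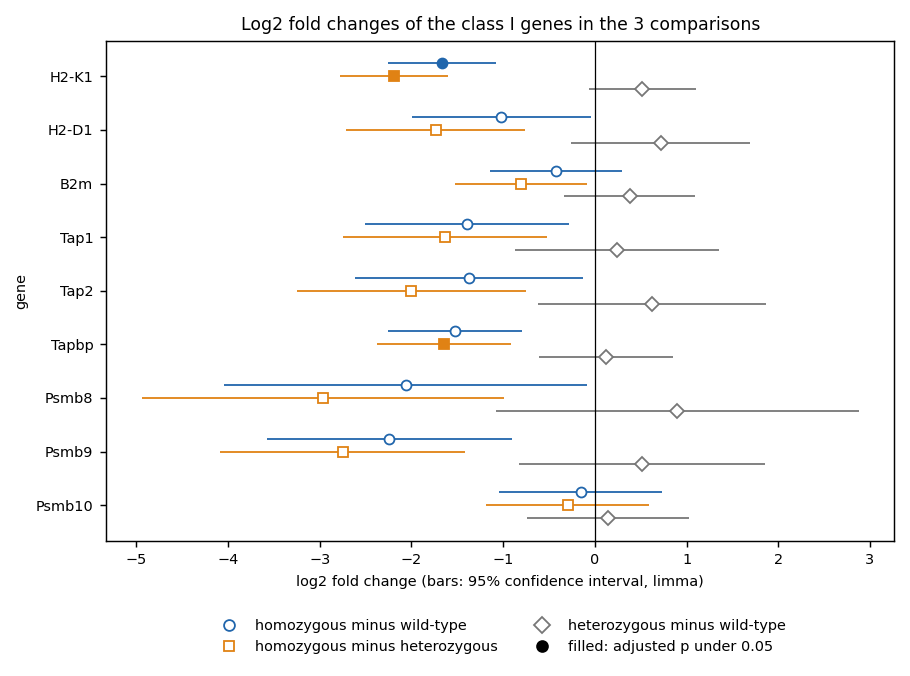
Log2 fold change of each gene in the 3 comparisons, with 95% intervals from limma as bars. H2-K1 passed the threshold in both homozygous comparisons and Tapbp against heterozygous cells, and the intervals of the heterozygous against wild-type comparison all include 0.

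The heavy chain genes have near-identical coding sequences, so their other probe sets were read as well. H2-K1 has 4 single-gene probe sets and H2-D1 has 9, of which 4 were above background on all arrays. The second H2-K1 probe set had 1463 and 791 in homozygous cells, 3963 and 3501 in heterozygous cells, and 1630 and 2862 in wild-type cells. It followed the leading H2-D1 probe set rather than the leading H2-K1 one: the root mean square distance between centred log2 profiles over the 6 arrays was 0.0669 to H2-D1 and 0.411 to H2-K1. Levels given for these genes may therefore include signal from other heavy chains, and their part in the result was not tested. The third H2-K1 probe set had 191 and 231 in homozygous cells, 568 and 539 in heterozygous cells, and 486 and 534 in wild-type cells, which gave log2 differences of -1.28 against wild-type and -1.40 against heterozygous cells. The H2-D1 probe sets below the leading one gave log2 differences of -1.28, -1.09 and -0.27 against wild-type cells, in order of their signal. Read from its second-highest probe set, H2-K1 had a log2 fold change of -1.01 against wild-type cells (limma adjusted p = 0.236) and of -1.79 against heterozygous cells (limma adjusted p = 0.100), and it was not called in either.

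**Figure D3:**
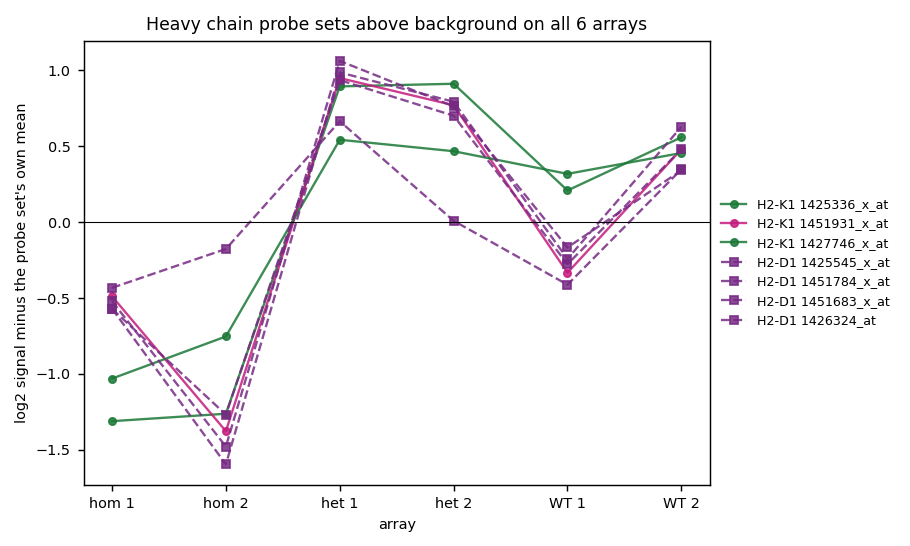
Log2 signal minus the probe set's own mean for the H2-K1 and H2-D1 probe sets above background on all 6 arrays, with arrays along the horizontal axis and lines joining the values of a probe set only to guide the eye. Homozygous arrays are lowest in all of them except the dimmest H2-D1 probe set, whose first wild-type array lies among them, and the second H2-K1 probe set tracks the leading H2-D1 probe set.

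The second B2m probe set ran the same way as the first, with 4143 and 7016 in homozygous cells, 10925 and 12704 in heterozygous cells, and 6471 and 10282 in wild-type cells. The second Tapbp probe set had 68.5 and 66.2 in homozygous cells, 130 and 243 in heterozygous cells, and 162 and 122 in wild-type cells, with no overlap of homozygous cells with the other groups. The other probe sets of Tap1 and Psmb8 lay near or under background. Tap2, Psmb9 and Psmb10 each have 1.

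The 2 arrays of a group differed for these genes. In homozygous cells the second array was above the first by a median log2 difference of 0.63 over the 9 genes, with 0.04 over all genes tested, and H2-D1 ran the other way at -0.70. In wild-type cells the median was 0.74, with -0.03 over all genes, and the difference reached 1.83 for Psmb8. In heterozygous cells it was 0.02, with 0.07 over all genes. The mean of the 9 genes, each centred on its own mean, was -1.36 and -0.71 in homozygous cells, 0.77 and 0.72 in heterozygous cells, and -0.06 and 0.63 in wild-type cells. 

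**Figure D4:**
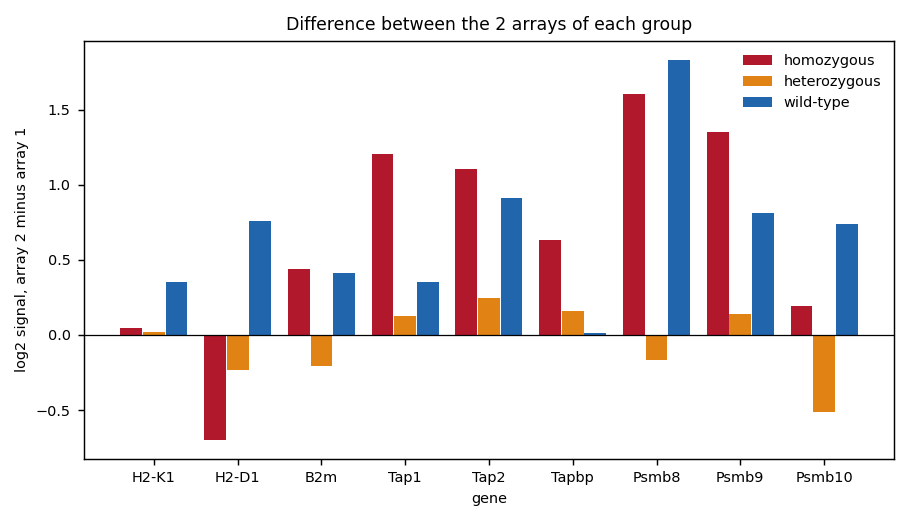
Log2 difference between the second and the first array of a group, as bars for each of the 9 genes in homozygous, heterozygous and wild-type cells. The differences have medians of 0.63 in homozygous, 0.02 in heterozygous and 0.74 in wild-type cells.

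The other genes of the pathway were read by list, each with limma over all genes tested. Of 20 other class I genes listed, 9 had a single-gene probe set and 5 were tested. Their median log2 fold change in homozygous cells was -2.15 against wild-type and -2.49 against heterozygous cells, with 5 of 5 below 0 in both and 4 and 5 of them at an unadjusted p under 0.05, where 28.9% and 30.6% of all genes tested passed. Mr1, a class I-like molecule that presents vitamin B metabolites, had intensities of 60.9 and 54.5 in homozygous cells, 208 and 301 in heterozygous cells, and 155 and 167 in wild-type cells. Mr1 fell against heterozygous cells (log2 fold change -2.12 ± 0.27, limma adjusted p = 0.0320), and against wild-type cells its value was -1.48 with a limma adjusted p of 0.0567.

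As a list, the chaperones and trimming enzymes of peptide loading lay near the median of all genes. Of the 7 tested 0 were called, and 1 had an unadjusted p under 0.05 in each comparison, against 28.9% and 30.6% of all genes, with median log2 fold changes of -0.02 against wild-type and -0.10 against heterozygous cells, or 0.076 and -0.013 relative to the median of all genes. Centring arrays on their medians turned the signs, to 0.29 and 0.13, by shifting all genes alike. Calreticulin, a chaperone of the loading complex encoded by Calr, had a log2 fold change of 0.07 ± 0.30 against wild-type cells (limma adjusted p = 0.90). Canx and Hspa5, encoding calnexin and the chaperone BiP, had 0.13 and -0.02. Tapbpl was the gene at an unadjusted p under 0.05 in both comparisons. It had 109 and 103 in homozygous cells, 212 and 166 in heterozygous cells, and 197 and 209 in wild-type cells. Its log2 fold changes were -0.93 ± 0.23 against wild-type and -0.83 ± 0.23 against heterozygous cells (limma adjusted p = 0.0874 and 0.0962). In both comparisons 4 of the 7 genes were below 0 and 3 above.

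The constitutive proteasome core had 14 of 14 genes tested, 13 of them above 0 in homozygous against wild-type cells and 0 called (3 at an unadjusted p under 0.05, against 28.9% of all genes), with a median log2 fold change of 0.24. Psma3, Psma6 and Psma2, subunits of the outer rings, had values of 0.28, 0.20 and 0.05. The counterparts of the immunoproteasome subunits were picked out after their values were seen: log2 fold changes were 0.34 ± 0.21 for Psmb5, 0.84 ± 0.26 for Psmb6 and 1.02 ± 0.23 for Psmb7, with limma adjusted p of 0.336, 0.120 and 0.0744. Psmb3 and Psmb1, not counterparts of those subunits, had 0.95 ± 0.27 and 0.51 ± 0.24 (limma adjusted p = 0.104 and 0.226). Among 4 proteasome activator genes 0 were called, and 3 had an unadjusted p under 0.05 against wild-type cells, where 28.9% of all genes did. Psme1, a subunit of the interferon-inducible activator, had 3309 and 3403 in homozygous cells, 5433 and 5967 in heterozygous cells, and 4700 and 5665 in wild-type cells. Its log2 fold change against wild-type was -0.62 ± 0.23 (limma adjusted p = 0.152). Psme4, another activator, had 1.01 ± 0.26 (limma adjusted p = 0.0881), and Pomp, an assembly factor, 0.03.

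Regulators of class I genes and of interferon gamma signalling held 14 tested genes, 0 of them called and 2 at an unadjusted p under 0.05 against wild-type cells, where 28.9% of all genes passed. Their median was -0.00, which is 0.090 relative to all genes, and 0.31 after the same shift of all genes by centring. Jak1, a kinase of interferon receptors, had 812 and 1153 in homozygous cells, 2161 and 1623 in heterozygous cells, and 1939 and 2033 in wild-type cells, with a log2 fold change of -1.04 ± 0.29 against wild-type (limma adjusted p = 0.102). Rela and Nfyc, transcription factor subunits, had 0.18 and -0.50. Irf1 and Nlrc5, transcriptional activators of class I genes, were also picked out after their values were seen. Irf1 had 1125 and 927 in homozygous cells, 1148 and 1153 in heterozygous cells, and 1019 and 1202 in wild-type cells. Nlrc5 lay near background, between 16.8 and 45.7 over the 6 arrays, and was not tested. Against wild-type cells 7 of the 14 tested genes were below 0 and 7 above. Ifngr2, a receptor gene picked out in the same way, had 423 and 215 in homozygous cells, 877 and 922 in heterozygous cells, and 851 and 814 in wild-type cells. Its log2 fold changes were -1.47 ± 0.37 against wild-type and -1.58 ± 0.37 against heterozygous cells (limma adjusted p = 0.0867 and 0.0729).

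Of 17 tested genes of the type I interferon response, 0 were called in either comparison and 4 had an unadjusted p under 0.05 against wild-type cells, where 28.9% of all genes did, with a median log2 fold change of 0.23 against wild-type and -0.44 against heterozygous cells. The 2 homozygous arrays differed on this list, the second being above the first by a median of 2.98 on the log2 scale. Ifi27 had 685 and 4291 in homozygous cells, 2505 and 2248 in heterozygous cells, and 2640 and 2554 in wild-type cells, so the groups overlapped. Ifnar2, encoding a chain of the type I receptor, had a log2 fold change of -1.11 against wild-type, and Ifi35 had 0.54. Usp18, an interferon-induced protease picked out after its values were seen, had 55.2 and 2255 in homozygous cells, 42.0 and 30.9 in heterozygous cells, and 35.0 and 15.8 in wild-type cells. Against wild-type cells 8 of the 17 genes were below 0 and 9 above. Gbp2 and Oasl2, also picked out after their values were seen, were among those below 0. Gbp2 had 3.43 and 383 in homozygous cells, 4450 and 2634 in heterozygous cells, and 4030 and 5530 in wild-type cells. The log2 fold changes against wild-type were -7.03 ± 2.13 for Gbp2 and -3.46 ± 1.51 for Oasl2 (limma adjusted p = 0.115 and 0.201).

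**Figure D5:**
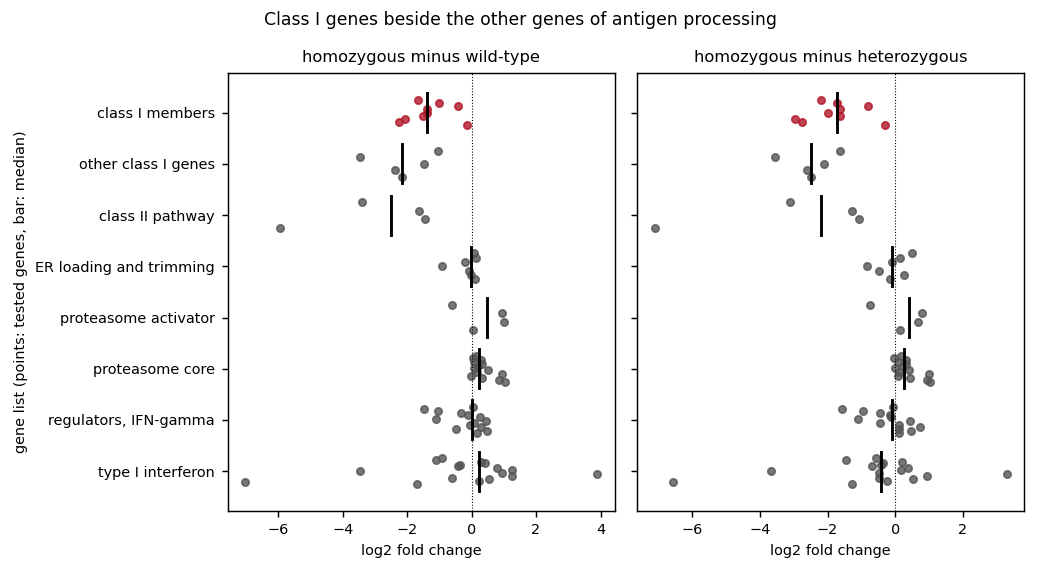
Log2 fold change of the tested genes in each list for homozygous against wild-type cells and homozygous against heterozygous cells, with points standing for genes and black bars for medians. The medians of the 9 genes and of the other class I genes lie below 0, and that of the constitutive proteasome core lies at 0.24 against wild-type cells.

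Genes of the class II pathway, used by macrophages, dendritic cells and B cells, and markers of other cell types were read beside these results. In class II, 4 of 7 genes were under background on both homozygous arrays, and summed intensities were 174 to 202 in homozygous cells, 1957 to 2655 in heterozygous cells and 1234 to 2679 in wild-type cells. A large part of that sum was Ctss, also among the macrophage markers, with 1347 and 1152 in heterozygous cells and 660 and 476 in wild-type cells. In heterozygous against wild-type cells the 4 tested class II genes had a median log2 fold change of -0.31, with 3 below 0 and 1 above. The 14 macrophage markers summed to 502 to 742 in homozygous cells, 5659 to 5775 in heterozygous cells and 2643 to 3355 in wild-type cells, the same order as the class I genes. Of them 7 were under background on both homozygous arrays, 0 on both heterozygous arrays and 1 on both wild-type arrays. The largest signal was Cd14 on the first homozygous array, at 222, and Csf1r on the second, at 488. Cd14 had 222 and 6.28 in homozygous cells, 128 and 112 in heterozygous cells, and 70.4 and 45.8 in wild-type cells. All 8 tested markers had log2 fold changes below 0 in both homozygous comparisons. Lyz2, encoding lysozyme, was at least 24.1-fold lower in homozygous than in wild-type cells and at least 44.6-fold lower than in heterozygous cells, with both homozygous arrays under background (limma adjusted p = 0.0118 and 0.0106). Ctss, encoding cathepsin S, was at least 22.9-fold lower than in wild-type cells (limma adjusted p = 0.0435). Mpeg1 also fell, by 2.63 on the log2 scale against wild-type cells (limma adjusted p = 0.0268). Its homozygous signals of 27.8 and 19.4 lay near background, so that size is limited by signal. The bounds given as at least a fold are the ratio of the other group's geometric mean to the background level.

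The 8 endothelial markers summed to 1909 to 2757 in homozygous cells, 9087 to 10419 in heterozygous cells and 10459 to 10936 in wild-type cells. All 3 that were tested, Kdr, Icam2 and Esam, fell in both homozygous comparisons, where 2.25% and 3.22% of all genes tested fell. Most of the endothelial sum was Esam, with 1791 and 2610 in homozygous cells, 6836 and 7906 in heterozygous cells, and 7222 and 8168 in wild-type cells. Of the 8 markers 5 were under background on both homozygous arrays, 2 on both heterozygous arrays and 1 on both wild-type arrays, and 5 of the 8, Pecam1 and Cdh5 among them, were too dim to be tested. Icam2, an adhesion molecule, was under background on both homozygous arrays and at least 38.7-fold lower than in wild-type cells (limma adjusted p = 0.0110). The 13 markers of the surface epithelium summed to 58738 to 68953 in homozygous cells, 141989 to 185304 in heterozygous cells and 163034 to 206273 in wild-type cells, and none was under background on both arrays of any group. In both homozygous comparisons 12 of the 13 markers had log2 fold changes below 0 and 1 above. Upk1b, a uroplakin of the mesothelial lining, fell by 2.42 on the log2 scale against wild-type cells (limma adjusted p = 0.0270), and Lgals7 fell by 4.50 (limma adjusted p = 0.0442). Krt18 and Krt7 were picked out after their values were seen. Krt18 was the marker above 0, at 0.45 against wild-type cells (limma adjusted p = 0.735). It had 25436 and 5623 in homozygous cells, 11707 and 6729 in heterozygous cells, and 6247 and 12233 in wild-type cells. Krt7 differed the other way between the homozygous arrays, with 60.5 and 1729. The 6 fibroblast markers summed to 22595 to 56241 in homozygous cells, 22589 to 33617 in heterozygous cells and 23719 to 39315 in wild-type cells, with overlap of all groups. Most of the fibroblast sum was Col1a2 and Dcn. Against wild-type cells the 6 markers had a median log2 fold change of -2.11, with 4 below 0 and 2 above. Of them Pdgfra fell by 2.81 (limma adjusted p = 0.0326). Thy1, Lum and Dcn, which were not called, had -5.62 ± 1.11, -2.14 ± 2.96 and -2.07 ± 1.31. Lum had 2.15 and 1566 in homozygous cells, 432 and 884 in heterozygous cells, and 310 and 210 in wild-type cells. Dcn had 865 and 15441 in homozygous cells and 16386 and 14435 in wild-type cells, so these groups overlapped. Over the 6 markers the second homozygous array was above the first by a median of 3.55 on the log2 scale. The uncalled collagen genes Col1a1 and Col1a2 had log2 fold changes of 1.52 and 1.13. Granulosa and theca markers summed to 265 to 1379 in homozygous cells, 2756 to 4355 in heterozygous cells and 4082 to 7341 in wild-type cells. Of 3 tested, 0 were called and 2 had an unadjusted p under 0.05 in each homozygous comparison, where 28.9% and 30.6% of all genes passed. Of 10 T cell and NK cell markers, 6 were under background on all 6 arrays and 0 were tested, with sums of 104 to 119 in homozygous cells, 127 to 157 in heterozygous cells and 126 to 197 in wild-type cells. In addition 1 dendritic and 1 B cell marker were tested and not called. The part of other cell types in the class I values was not tested.

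Ligands and receptors of cytotoxic cells had 4 tested genes, 0 of them called and 2 at an unadjusted p under 0.05 against wild-type cells, where 28.9% of all genes passed. Cd47, which signals to macrophages not to engulf the cell, had 2530 and 2510 in homozygous cells, 6196 and 5194 in heterozygous cells, and 5997 and 5937 in wild-type cells, with a log2 fold change of -1.24 ± 0.22 against wild-type (limma adjusted p = 0.0551). Nectin2 and Pvr, ligands of NK cell receptors, had -1.85 and -0.10.

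The 8 genes most like the class I profile were ranked by Pearson's r over the 6 arrays with the mean of the 9 genes. They were Pof1b at 0.998, Lin7a at 0.997, Cd99 at 0.995, Fuom at 0.994, Daglb and Gphn at 0.993, and Msrb2 and Clic5 at 0.992. An r of at least 0.9 was found for 917 of 10907 genes, or 8.41%. Daglb, an enzyme that makes an endocannabinoid, had 69.9 and 174 in homozygous cells, 1117 and 988 in heterozygous cells, and 515 and 899 in wild-type cells. These genes were ranked by their likeness to the profile, so their differences between the groups are a description.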

How the data were processed

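Biotin-labelled total RNA was hybridised, per the labels. The authors deposited linear intensities for 45101 probe sets. RMA is named in the submitters' processing notes, without a version, but every array has a trimmed mean of 500.0 over its central 96% of values, as scaled MAS 5.0 signals do. Log2 was taken with no offset and no further normalization. Of the probe sets, 34958 named 1 gene symbol, 932 several and 9211 none, and 34754 were matched by identifier to a RefSeq gene table. Each of 18194 genes was read from its probe set with the highest mean. Genes at or above the 40th percentile of that mean, a geometric mean intensity of 60.2, were tested.

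The model was limma 3.58.1 (R 4.3.3) with a mean for each group over all 6 arrays (3 residual and 2.26 prior degrees of freedom). The procedure was tested on simulated data. Plots used matplotlib 3.10.9 under Python 3.11.15. Replicate numbers did not pair the arrays: correlations of replicate differences over genes were -0.0997 for homozygous with wild-type, 0.155 for homozygous with heterozygous and -0.303 for heterozygous with wild-type. The transcript of the mutated gene was not analysed here.

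The members and lists were chosen with earlier results of these data known. All members were named, with every called gene of a list or, where none was called, up to 3 with the highest mean signal, and the 8 genes most like the profile. The profile used the 9 members found, where 10 had been planned. Alternatives covered scaling, filtering, probe set choice, a floor at background, the samples fitted, array weights, the replicate block and leaving out arrays.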

Additional observations from a re-analysis of the deposited data

How the results depend on the processing

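Filters, the floor at background, array weights, the replicate block, fitting only the groups compared and leaving out arrays of an uninvolved group leave a member's log2 value as it was, so only the alternatives that alter it bear on its sign. Of 72 such values in each comparison, 69 were below 0 in homozygous against wild-type cells, 72 in homozygous against heterozygous cells, and 69 were above 0 in heterozygous against wild-type cells. Calls varied. For homozygous against wild-type cells, where 291 genes and 1 member were called by limma, the calls were 0 genes and 0 members with no filter, with only these groups fitted, with the replicate block, and without both the second wild-type and first heterozygous arrays. In those fits 3359, 2505, 2764 and 1210 genes had an unadjusted p under 0.05. Averaged probe sets and the second-highest probe set each gave 190 genes and 0 members, and raising signals to background gave 666 and 2. Members called were 0 with median-centred arrays and with array weights, and 2 with the filter at the 60th percentile. For homozygous against heterozygous cells, where 446 genes and 2 members were called, the calls were 17 genes and 0 members with no filter, 281 and 1 with probe sets averaged, 208 and 0 with the second-highest probe set, 4 and 0 with only these groups, 293 and 1 with array weights, 19 and 0 with the replicate block, and 0 and 0 without both arrays named above, where 1352 genes had an unadjusted p under 0.05. Raising signals to background gave 798 genes, and median-centred or quantile-normalized arrays gave 1 member. Leaving out 1 array at a time gave 0 to 2703 genes, 0 to 6 members and member medians of -1.84 to -1.15 against wild-type, and 0 to 2902 genes, 0 to 6 members and medians of -2.21 to -1.45 against heterozygous cells, the highest counts being without the second homozygous array. A group left with 1 array was assumed to vary like the others. For heterozygous against wild-type cells 0 genes were called by limma in every alternative, including the replicate block and a crossed pairing chosen after seeing the data, and the member median ran between 0.11 and 0.69 with 1 array left out. Signs turned for Psmb10 in homozygous against wild-type cells, to 0.15 with median-centred arrays and 0.21 without both arrays named above, with a range of -0.52 to 0.21 when 1 array was left out. In heterozygous against wild-type cells, leaving out 1 array gave -0.23 to 0.51 for Psmb10 (-0.12 without the first heterozygous array) and -0.0151 to 1.82 for Psmb8. For these results the cause was not tested. Members close to background, Tap2, Psmb8 and Psmb9 in homozygous cells, are limited by signal.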
